A study of Rattus norvegicus with 35 samples.

Results

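The MHC class II antigen presentation genes of the rat were followed in the olfactory epithelium from birth to old age. They were chosen by name, and the list held 8 genes: the invariant chain Cd74, the alpha and beta chains of the 2 classical molecules RT1-D (RT1-Da, RT1-Db1) and RT1-B (RT1-Ba, RT1-Bb), the peptide loading pair RT1-DMa and RT1-DMb, and the transactivator Ciita. A probe belonged to a gene when its name on the array, or the symbol in its description, was that of the gene. This rule found 10 probes for 5 of the 8 genes, Cd74, RT1-Da, RT1-Db1, RT1-Ba and RT1-Bb, out of 41012 probes on the array. A probe for RT1-DMa and a probe for Ciita were found through their transcript accession, since the array names them Hla-dma and C2ta, and these 2 genes are described beside the 5 and enter no count. No probe was found for RT1-DMb.

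The samples were 35 arrays hybridized with RNA labeled with 1 dye, from 27 Brown Norway rats. The labels name no treatment and no engineered allele. The newborn group comprised 19 pups aged between 3 and 5 days, of unknown sex, with 4 pups in litter L1 and 5 in each of litters L2, L3 and L4. The adult group comprised 4 males aged 9 weeks, numbered 13 to 16, and the old group 4 males aged 22 months, numbered 17 to 20, which had been kept in the animal house since weaning age. The sides of the nose, A and B, were hybridized separately for each adult and old rat, whereas each pup gave RNA from 1 side, and the 2 arrays of a rat were averaged so that the rat is the replicate.

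MHC class II molecules display peptides from engulfed proteins to CD4+ T cells. An alpha and a beta chain assemble in the endoplasmic reticulum with the invariant chain, which fills the groove and steers the complex to endosomes, where cathepsins degrade it and the DM molecule exchanges its last fragment for a peptide. Dendritic cells, macrophages and B cells carry these molecules at all times, and many epithelial cells make them when exposed to interferon gamma. Transcription of the whole group depends on Ciita, which binds no DNA itself and is held at the promoter by factors on conserved X and Y boxes.

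The promoters are shown because levels of the members rose and fell together from pup to pup, as described further on. RefSeq (build GRCr8) gave a window around the start of transcription for 6 of the 8 members, the exceptions being RT1-DMb and Ciita. In 5 of these 6 windows the letters GNNACNG, the core of an X box, were followed on the strand of the gene, after 24 to 26 bases, by ATTGG, the core of a Y box. Both stretches are in capitals in the lines that follow, read 5′ to 3′.
RT1-Da, chr20:4515327-4515373, plus strand: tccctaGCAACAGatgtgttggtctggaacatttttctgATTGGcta
RT1-Db1, chr20:4560235-4560280, minus strand: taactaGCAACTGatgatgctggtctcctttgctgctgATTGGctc
RT1-Ba, chr20:4576975-4577021, plus strand: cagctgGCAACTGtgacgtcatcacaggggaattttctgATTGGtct
RT1-Bb, chr20:4604172-4604217, minus strand: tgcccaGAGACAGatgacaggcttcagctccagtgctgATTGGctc
RT1-DMa, chr20:4712392-4712438, minus strand: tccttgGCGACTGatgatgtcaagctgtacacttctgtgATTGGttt
In Cd74 this pair was absent from the window, but CCTAGNAAC, a longer X-like stretch that RT1-Da also carries, stood 22 bases before ATTGG in reverse, written here as CCAAT.
Cd74, chr18:56526983-56527024, plus strand: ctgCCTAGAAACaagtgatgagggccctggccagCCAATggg

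Among the 33469 promoters of the same length in the table, 0.296% held the spaced pair of stretches, while ATTGG alone, on either strand, was in 37.5%, GNNACNG alone in 88.1% and CCTAGNAAC in 1.54%. The spacing was set after the letters of the members had been read, and a match in letters is a description, not a site of binding.

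A level is given here as the log2 of the background-subtracted intensity over the median of its array, so that 0 is the median probe of the array and a difference of 1 is a doubling. Since probes differ in how brightly they hybridize, levels of different probes were not compared with each other. Each gene was represented by its brightest probe on average. All these probes, and the RT1-DMa probe, were above background on 35 of 35 arrays and saturated on none. The array median ranged from 46.0 to 96.5 intensity units in newborn rats, from 88.7 to 179 in adult rats and from 40.2 to 59.8 in old rats. Of the 5 scan days, the earliest 2 held adult arrays and nothing else, so that for adult rats age and scan day cannot be told apart, while the old rats and L1 were scanned on the same day. Of 8 measured genes of mature olfactory sensory neurons, 8 were called lower in newborn than in adult and in old rats, and their summed level ranged from 201 to 445 times the array median in newborn rats, from 1206 to 1623 in adult and from 1836 to 2498 in old rats. Of 5 sustentacular cell genes, 4 were called lower in newborn than in adult and in old rats, with sums from 498 to 1270 in newborn, 1768 to 1977 in adult and 2934 to 3253 in old rats. The other gene had no value in adult rat 13, so that it was not tested and is left out of the sum of that rat. Of 6 genes of ciliated respiratory cells, none was called between newborn and adult rats and 1 was lower in newborn than in old rats, with sums from 369 to 983, 398 to 572 and 678 to 749. The part of these shifts in the class II differences was not tested. Of all probes, 19.7% were called lower in newborn than in adult rats and 23.1% lower in newborn than in old rats. A summed level is led by the brightest probes of its list. In whole tissue, fewer cells of a type and less RNA per cell cannot be told apart.

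Cd74, which encodes the invariant chain, lies on chromosome 18 (probe at chr18:56837700-56837759 in build rn3). Its level in pups ran from 4.73 to 6.74, with a median of 5.42. In adult rats it was 7.11 in rat 13, 7.55 in rat 14, 8.16 in rat 16 and 9.15 in rat 15. In old rats it was 8.97, 8.58, 8.82 and 8.61 in rats 17 to 20. Every pup was below every adult and every old rat, while adult rat 15 stood above the 4 old rats and the other adult rats below them.

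The classical chains, encoded on chromosome 20, had the same order of ages. RT1-Da, the alpha chain of RT1-D (probe at chr20:4641331-4641390), ran from 2.31 to 4.35 in pups with a median of 3.25. Its adult levels were 4.55, 5.03, 5.76 and 7.20 in rats 13, 14, 16 and 15, and its old levels were 6.79, 6.61, 6.96 and 6.60. Again no pup reached the lowest adult rat, and rat 15 alone among adult rats exceeded the old rats.

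RT1-Db1, the beta chain that pairs with RT1-Da (probe at chr20:4673637-4673696), ran from 3.12 to 5.38 in pups with a median of 3.88. Adult rats 13, 14, 16 and 15 stood at 5.05, 5.56, 6.08 and 7.47, and old rats 17 to 20 at 7.298, 7.11, 7.48 and 7.09. Here the highest pup, rat 24 of L2, was above adult rat 13, and adult rat 15 lay within the range of the old rats.

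RT1-Ba, the alpha chain of RT1-B (probe at chr20:4701200-4701259), ran from −1.65 to 1.20 in pups with a median of −0.10. Its adult levels in the same order of rats were 1.26, 1.66, 2.36 and 3.59, and its old levels were 3.25, 2.94, 3.30 and 2.86. The highest pup, at 1.20, was just below the lowest adult rat, at 1.26.

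RT1-Bb, the beta chain of RT1-B (probe at chr20:4730760-4730810), ran from 1.03 to 3.42 in pups with a median of 2.11. Adult rats 13, 14, 16 and 15 stood at 3.64, 3.92, 4.88 and 6.46, against 5.27, 4.94, 5.32 and 4.92 in old rats 17 to 20. For this gene rat 15 was more than 1 log2 unit above every old rat.

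**Figure D1:**
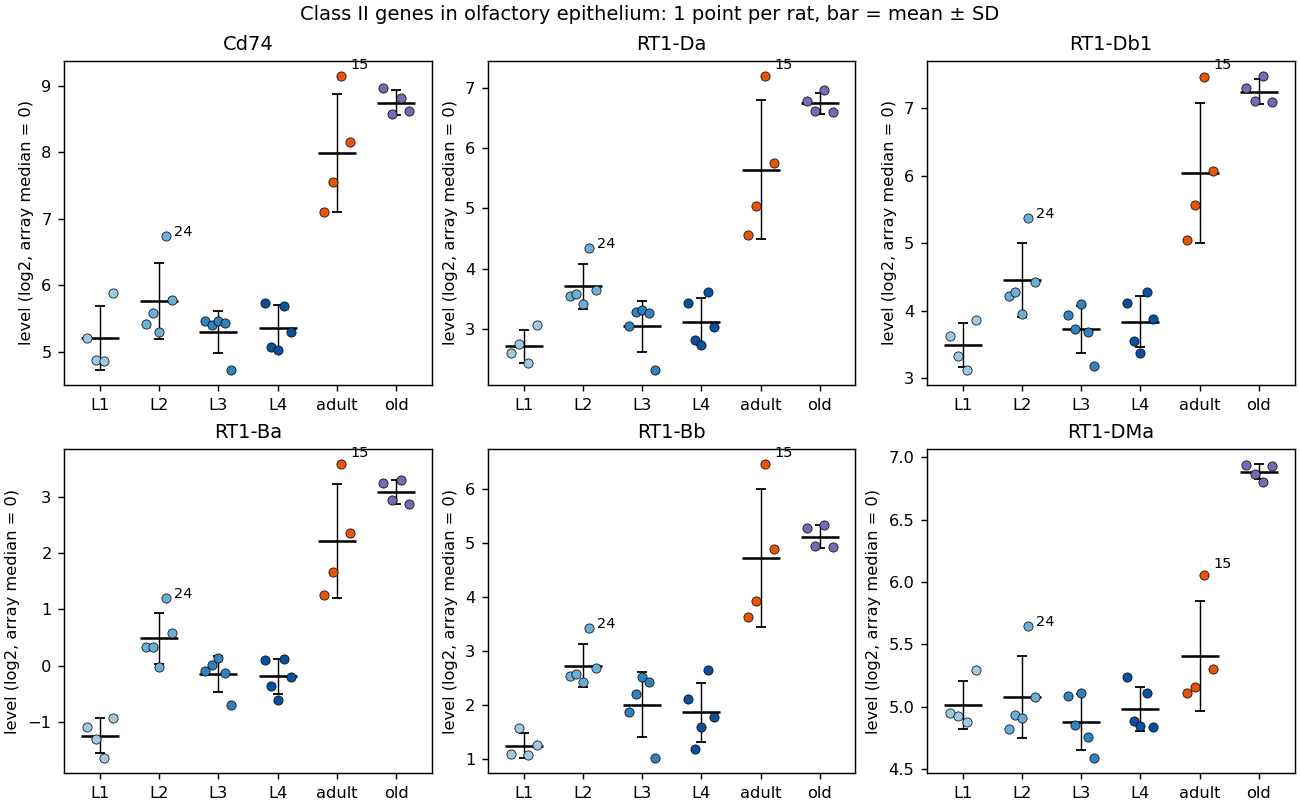
Level (log2, array median = 0) of Cd74, RT1-Da, RT1-Db1, RT1-Ba, RT1-Bb and RT1-DMa in each rat, by litter (L1 to L4), in adult and in old rats. Each point is a rat, horizontal bars are group means and error bars are SD. Pups lie low for the first 5 genes, adult rats are spread widely with rat 15 on top, and old rats are close together.

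The first comparison asked whether class II transcripts change between birth and 9 weeks. All 5 genes were called lower in newborn rats (limma over 6 groups, with newborn as the mean of 4 litters, n = 19 pups and 4 adult rats, Benjamini-Hochberg adjusted p under 0.01), when 19.7% of all 40806 tested probes were called lower in newborn and 27.0% higher. Cd74 was 5.98-fold lower in newborn than in adult rats, a log2 difference of −2.58 ± 0.27 (SE, adjusted p = 1.2e-08). The log2 difference was −2.76 ± 0.34 for RT1-Bb, −2.49 ± 0.29 for RT1-Da, −2.49 ± 0.26 for RT1-Ba and −2.16 ± 0.28 for RT1-Db1, with adjusted p between 1.9e-08 and 4.7e-07. The groups did not overlap for 4 of the 5 genes, the exception being RT1-Db1. The share of all probes without overlap was not computed. The median log2 difference of the 5 genes was −2.49, against 0.10 over all probes tested. Of the probes called, 42.1% were lower in newborn, and 54.5% with normexp and quantile normalization, while the 5 genes were lower in newborn under each scaling. Without adult rat 15 the 5 differences ran from −2.19 to −1.69 and all 5 stayed called, with 17.0% of all probes called lower in newborn. With the methods' t-test, which takes the spread of each age from its own rats, the adjusted p of the 5 genes ran from 0.0186 to 0.0447 and none passed.

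Between newborn and old rats the difference was larger, and again all 5 genes were called lower in newborn, against 23.1% of all probes called lower and 20.2% higher. RT1-Da was 12.1-fold lower (log2 difference −3.60 ± 0.29, adjusted p = 2.4e-10), RT1-Db1 10.3-fold (−3.37 ± 0.28), RT1-Ba 10.3-fold (−3.37 ± 0.26), Cd74 10.1-fold (−3.34 ± 0.27) and RT1-Bb 8.86-fold (−3.15 ± 0.34). No pup reached the lowest old rat for any of the 5 genes, and here too the share over all probes was not computed. Since L1 and the old rats were scanned on 1 day, they could be compared within it. The 5 log2 differences were then between −4.33 and −3.54, with all 5 called. In either direction 11989 of all probes were called, and the share called lower in L1 was not computed. L1 had the lowest mean of the 4 litters for each of the 5 genes, so that these differences do not stand for all pups. This comparison shares its pups with the one before and is not independent of it.

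The comparison of adult with old rats depended on which rats were included. With all 4 adult rats, 1 of the 5 genes, RT1-Db1, was called lower in adult rats (log2 difference −1.20 ± 0.36, adjusted p = 0.00907), when 20.8% of all probes were called lower in adult and 11.4% higher. The other differences were −1.11 for RT1-Da (adjusted p = 0.0178), −0.87 for RT1-Ba (0.0417), −0.76 for Cd74 (0.0799) and −0.39 for RT1-Bb (0.515). The 95% interval for RT1-Bb, from −1.28 to 0.50, included 0. Without rat 15, 4 of the 5 genes were called lower in adult rats, with log2 differences of −1.68 for RT1-Db1, −1.63 for RT1-Da, −1.33 for RT1-Ba and −1.14 for Cd74, and RT1-Bb at −0.97 (adjusted p = 0.0287) was not, while 20.0% of all probes were called lower. Since rat 15 was the highest adult rat for each of the 5 genes, leaving it out lowers every adult mean. Conversely, leaving out any one of the other 7 rats ended the call of RT1-Db1. Quantile normalization, which removes a shift of −0.14 in the median of all probes between adult and old rats, changed the difference of RT1-Db1 to −0.74 (adjusted p = 0.103) and the share of calls lower in adult rats from 64.6% to 48.4%. After subtraction of the median of all probes, it changed Cd74 from −0.62 to −0.13 and RT1-Bb from −0.25 to −0.09. RT1-Da went from −0.97 to −0.68 and RT1-Ba from −0.73 to −0.82. The fit without rat 15 was run with array median scaling only.

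**Figure D2:**
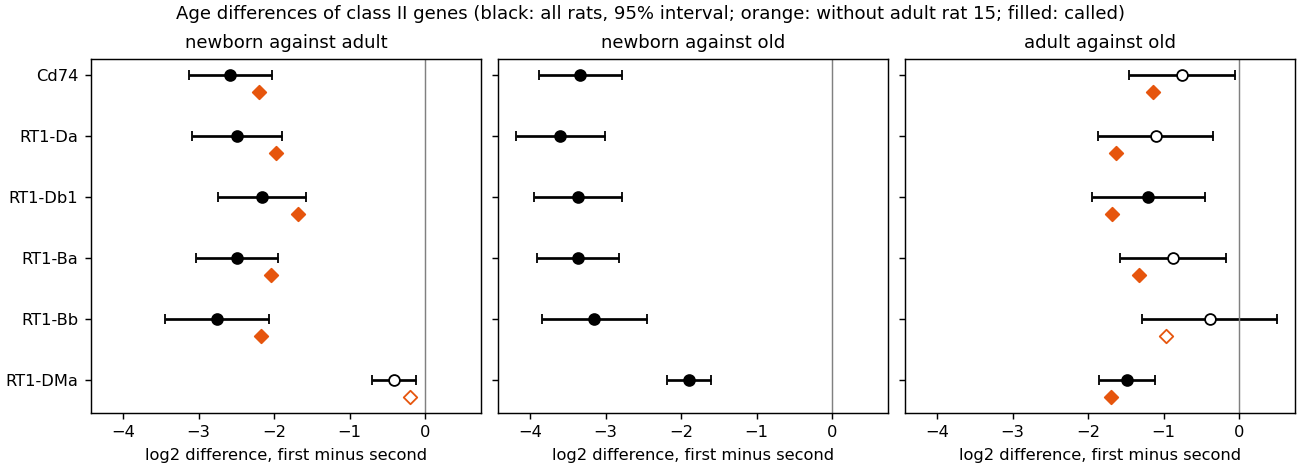
Log2 difference of 6 class II genes between ages, first group minus second. Black points are the limma estimates with all rats and their 95% intervals, orange diamonds the estimates without adult rat 15, and filled symbols passed an adjusted p of 0.01. RT1-DMa differs from the other genes by a small difference between newborn and adult rats and a larger one between adult and old rats.

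RT1-DMa, the alpha chain of the peptide exchanger, had another course. Its level ran from 4.59 to 5.65 in pups, was 5.11, 5.16, 5.30 and 6.05 in adult rats 13, 14, 16 and 15, and was 6.94, 6.87, 6.80 and 6.93 in old rats. Pups and adult rats overlapped, whereas all 4 old rats were above all 4 adult rats. The log2 difference was −0.42 ± 0.14 between newborn and adult rats (adjusted p = 0.0145), −1.90 ± 0.14 between newborn and old rats (7.4e-11) and −1.48 ± 0.18 between adult and old rats (5.3e-07). The first of these passed under 75th percentile scaling (−0.55, adjusted p = 0.000746) and quantile normalization (−0.77, adjusted p = 7.57e-06). Without adult rat 15 it was −0.20 (adjusted p = 0.209), and by the methods' t-test its adjusted p was 0.222. By that t-test the difference between adult and old rats did not pass either (adjusted p = 0.022). Within a rat, the level of RT1-DMa minus that of Cd74 was 2.16 higher in the 4 litter means than in the 4 adult rats, with no overlap. An exact permutation test of this difference gave 0.0286, two-sided, the smallest p that 4 against 4 allows, and 0.103 after adjustment over the 18 such relations computed, none of which passed. These relations were chosen after the levels had been seen.

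Ciita, the transactivator, was above background on none of the 35 arrays, so that neither its level nor a difference between ages is given.

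Where a gene had several probes, they agreed on the ages with 1 exception. The 2 probes of RT1-Da gave log2 differences between newborn and old rats of −3.60 and −3.77, the 3 probes of RT1-Db1 gave −3.37, −3.43 and −3.67, and the 2 probes of RT1-Bb gave −3.15 and −2.82. All 3 probes of RT1-Db1 were called lower in adult than in old rats. The exception was the second probe of RT1-Ba, drawn from a transcript described as RT1.B-1 alpha, which was above background on 1 of 35 arrays. The 2 probes are 60 bases each and are shown because they overlap, with the bases at which they differ in capitals.
RT1-Ba probe above background: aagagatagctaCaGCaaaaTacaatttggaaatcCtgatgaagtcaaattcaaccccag
RT1-Ba probe not above background: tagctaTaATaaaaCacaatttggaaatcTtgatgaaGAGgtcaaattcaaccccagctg
Aligned over 57 positions, they shared 49 bases and differed by 5 mismatches and 3 additional bases in the second, and the longest stretch in common was 17 bases. A further probe, for a beta1 chain of RT1-D described as of haplotype k, carries no gene symbol and lies outside the rule. It was above background on all 35 arrays, with log2 differences of −2.03 between newborn and adult rats and −3.49 between newborn and old rats.

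Adult rats differed widely in these genes. From the lowest to the highest adult rat, the level rose 4.12-fold for Cd74, 5.01-fold for RT1-Ba, 5.36-fold for RT1-Db1, 6.26-fold for RT1-Da and 7.06-fold for RT1-Bb. In each case rat 13 was lowest and rat 15 highest. The sides of the nose of the same rat differed by a mean of 0.11 to 0.28 log2 units over these genes. Cd74 was 6.995 and 7.21 on sides A and B of rat 13, 7.73 and 7.37 in rat 14, 7.99 and 8.32 in rat 16, and 9.07 and 9.23 in rat 15. The order 13, 14, 16, 15 held on both sides for 4 of the 5 genes, and for RT1-Bb it held on side A while rats 13 and 14 changed places on side B.

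**Figure D3:**
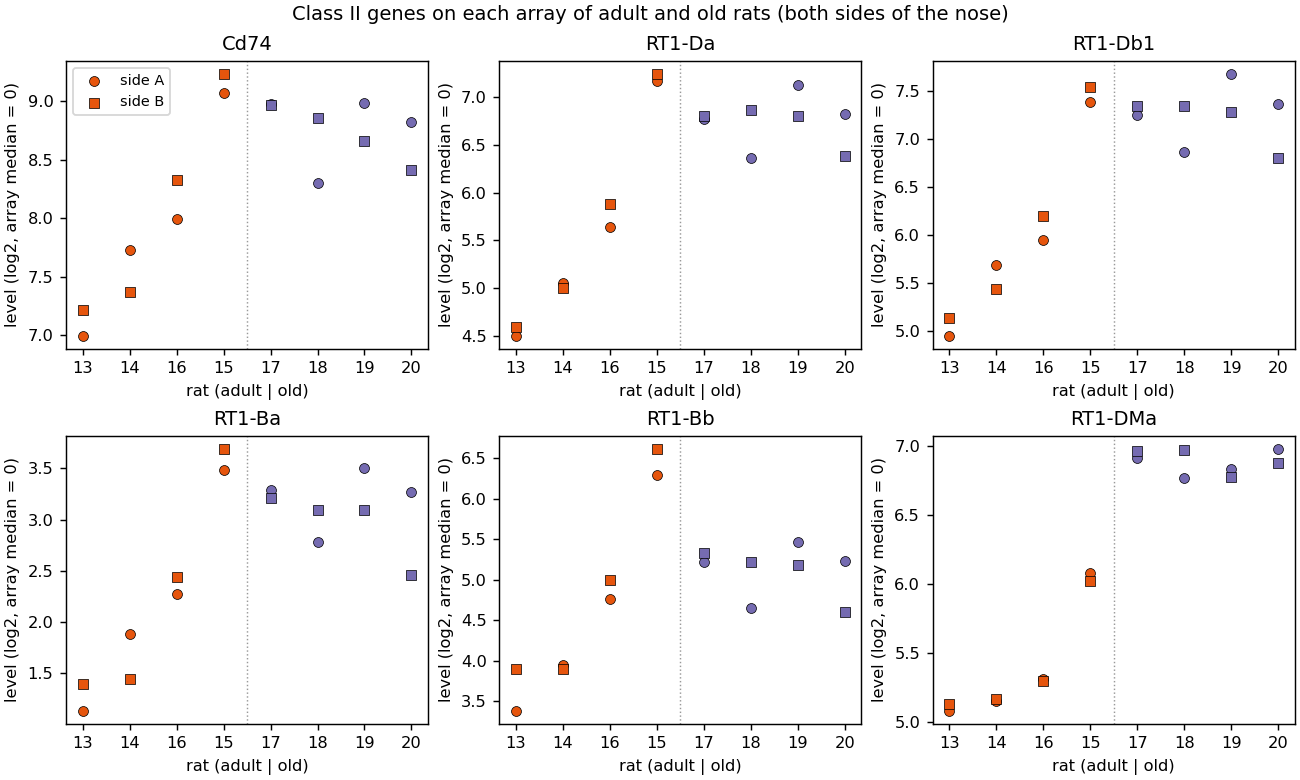
Level (log2, array median = 0) of 6 class II genes on each array of the adult rats (orange, in the order 13, 14, 16, 15) and the old rats (purple, 17 to 20), with circles for side A and squares for side B. Both sides of adult rat 15 lie above those of the other adult rats in every panel.

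The SD between adult rats was between 0.89 and 1.27 for the 5 genes, larger than that of 98.7% to 99.6% of the 26014 probes expressed in adult rats with a value on each adult array, whose median SD was 0.17. A moderated F test of rats with the sides as replicates (limma) called RT1-Da (adjusted p = 0.00472), when 0.322% of all probes were called. The adjusted p of the other 4 genes ran from 0.0133 to 0.0298, and both probes of RT1-Da passed. RT1-DMa passed too (0.00306), with a 1.93-fold range between rats. When the background was corrected by normexp before quantile normalization, all 5 genes were called. None was called without rat 13, without rat 14 or without rat 15. Among the 26083 probes of other genes expressed in adult rats with a value on at least 1 array of each rat, 7.25% had the same order of rats, 38.0% were highest in rat 15 and 1.17% had a range over 2 log2 units. Rats 13 and 14 shared a slide and a scan day, and rats 15 and 16 another slide and day. Within the slides, rat 14 exceeded rat 13 by 0.28 to 0.52 log2 units over the 5 genes, and rat 15 exceeded rat 16 by 0.99 to 1.58, while the mean difference between the slides was 1.33 to 1.89.

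In old rats the same genes were close together. From the lowest to the highest old rat the range was 0.36 to 0.43 log2 units, or 1.28-fold to 1.35-fold, and the SD was 0.17 to 0.22. The sides of an old rat differed by a mean of 0.32 to 0.41 log2 units. None of the 5 genes was called between old rats (adjusted p between 0.617 and 0.672), when 0.0659% of all probes were called.

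Between litters, L2 had the highest and L1 the lowest mean level for each of the 5 genes. RT1-Ba had litter means of −1.24, 0.48, −0.16 and −0.19 from L1 to L4, a 3.31-fold range, and was the gene called by the moderated F test among litters (adjusted p = 0.00174), when 22.8% of all probes were called. RT1-Bb ranged from 1.25 in L1 to 2.73 in L2 (adjusted p = 0.0386), RT1-Db1 from 3.49 to 4.45 (0.111), RT1-Da from 2.71 to 3.70 (0.121) and Cd74 from 5.21 to 5.76 (0.452). L1 was scanned on another day than L2, L3 and L4, and the call of RT1-Ba ended with the slide as a random block (adjusted p = 0.018) and without pup 11 of L1 (0.0104).

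Within litters the members rose and fell together from pup to pup. Relative to the mean of its litter, the level of Cd74 correlated across the 19 pups with that of RT1-Db1 (r = 0.947, rho = 0.940), RT1-Ba (r = 0.930, rho = 0.939), RT1-DMa (r = 0.919, rho = 0.912), RT1-Da (r = 0.899, rho = 0.912) and RT1-Bb (r = 0.701, rho = 0.807). These were the 5 relations computed, read at an adjusted p of 0.05, with two-sided permutation within litters giving adjusted p from 2.5e-05 to 0.00247 for r and from 2.5e-05 to 4.8e-04 for rho. Without pups 24 and 12, the 2 farthest from the median of Cd74, r was 0.929, 0.925, 0.814, 0.891 and 0.770 in the same order. Pup 24 of L2 was the highest pup for all 6 genes. Of the pups of L2, L3 and L4, pups 24, 26, 28 and 34 were scanned on a later day than the others, and pup 24 was the one of L2. Without these 4 pups, a choice made after the data were seen, r was 0.933, 0.889, 0.907, 0.873 and 0.590 in the same order (15 pups, adjusted permutation p from 0.0002 to 0.0435). The levels compared share an RNA sample, an array and its median.

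The genes of the class II pathway outside the list were called in both directions. Of all probes, 19.7% were called lower and 27.0% higher in newborn than in adult rats. Between newborn and old rats the shares were 23.1% lower and 20.2% higher in newborn. Between adult and old rats they were 20.8% lower and 11.4% higher in adult. The counts of this list and of those that follow were not tested against these shares. Of 9 measured genes for lysosomal proteases and peptide loading, 4 were called lower and 2 higher in newborn than in adult rats (median log2 difference −0.40), 5 lower and 1 higher in newborn than in old rats, and 4 lower and 1 higher in adult than in old rats. Ctss, the cathepsin that completes the degradation of the invariant chain, was the one with the largest change among those above background on every array. Its log2 difference was −1.55 ± 0.13 between newborn and adult, −2.28 ± 0.13 between newborn and old and −0.74 ± 0.17 between adult and old rats. Between adult rats Ctss had levels of 5.26, 4.84, 4.84 and 5.16 in rats 13, 14, 16 and 15 (adjusted p = 0.734). Ctsd, an aspartic lysosomal protease, was lower in newborn than in adult rats (−1.09 ± 0.10), and Lgmn, the asparaginyl endopeptidase, was lower in newborn than in old rats (−1.004 ± 0.10). RT1-DOa, a chain of the DM inhibitor, was well above background on 6 of 35 arrays, 1 of newborn, 2 of adult and 3 of old rats, and no fold is given for it, although it was called lower in newborn than in adult (adjusted p = 0.00879) and old rats (0.00388).

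Of 6 measured transcription factors of the class II promoter, 3 were called lower and 2 higher in newborn than in adult rats, 2 lower and 1 higher in newborn than in old rats, and 2 in each direction between adult and old rats. Rfx5, the DNA-binding subunit of RFX on the X box, was called lower in newborn than in adult rats (adjusted p = 3.75e-07) and higher in adult than in old rats (0.000498). It was well above background on 6 of 19 newborn, 8 of 8 adult and 4 of 8 old arrays, and no fold is given for it. Rfxank, its partner, went the other way, with 0.85 ± 0.11 between newborn and adult rats and −1.24 ± 0.14 between adult and old rats. The Y box subunits Nfya and Nfyb differed by 0.72 ± 0.10 and −0.69 ± 0.11 between adult and old rats.

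Of 7 measured genes of co-stimulation and class II turnover, 1 was called in each direction between newborn and adult rats, 2 were called lower in newborn than in old rats and 1 lower in adult than in old rats. Icos, a co-stimulatory receptor of activated T cells, was called lower in newborn than in adult (adjusted p = 2.9e-06) and old rats (0.000108). It was well above background on 2 of 19 newborn arrays and on all adult and old arrays, and no fold is given for it. March1, a ligase that removes class II from the cell surface, was called higher in newborn than in adult rats (adjusted p = 0.00194) and lower in adult than in old rats (0.00281). It was well above background on 8 of 19 newborn, 1 of 8 adult and 5 of 8 old arrays, and likewise has no fold here. Cd83, which opposes that ligase, was lower in newborn than in old rats (−0.57 ± 0.17).

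Of 8 measured genes of interferon gamma signalling, 3 were called lower and 1 higher in newborn than in adult rats, 3 lower in newborn than in old rats, and 1 in each direction between adult and old rats. Irf1, a transcription factor induced by interferon gamma, was lower in newborn than in old rats (−1.30 ± 0.23). The kinase Jak1 was lower in newborn than in adult rats (−1.03 ± 0.10). The receptor chain Ifngr1 was lower in newborn than in adult rats (−0.59 ± 0.08) and Ifngr2 higher (0.68 ± 0.10).

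Of these 8 interferon gamma genes, 7 were highest in rat 15 among adult rats, when 38.0% of expressed probes outside the class II genes were. The cytokine Ifng was one of the 7. Ifng and Socs1 lie outside the naming rule and are given here after their values were seen. Ifng was above background on 2 of the 35 arrays, and these were the 2 arrays of rat 15, where its level was −1.56 on side A and −1.66 on side B. Rats 13, 14 and 16 were at the floor of the scale, −6.64, so that no test between rats is given. Among the other 26 rats the highest level of Ifng was −4.74 and 21 rats were at the floor. Irf1 was 2.19, 2.38, 2.62 and 4.07 in rats 13, 14, 16 and 15 (adjusted p = 0.0123), and Socs1, a feedback inhibitor of the same signal, −0.52, −0.26, 0.10 and 1.41 (0.0664). By the F test between adult rats 2 of the 8 genes were called, neither of them Irf1 or Socs1, when 0.322% of all probes were. Ifng is among the 8 genes of this count. Rat 15 was the highest of the 4 for Ifng, Irf1 and Socs1, as it was for the class II genes, and whether these are linked was not tested.

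Markers of leukocytes were measured because these cells carry class II molecules. Of 13 macrophage genes, 4 were called higher and 1 lower in newborn than in adult rats, 3 higher and 6 lower in newborn than in old rats, 1 higher and 6 lower in adult than in old rats, and their summed level, in multiples of the array median, ran from 276 to 688 in newborn rats, from 204 to 339 in adult rats and from 504 to 673 in old rats. The range of the pups overlapped those of both other ages. In adult rats 13, 14, 16 and 15 the sum was 204, 232, 265 and 339. Of the 13 genes, 7 were highest in rat 15, when 38.0% of expressed probes outside the class II genes were. Of 7 dendritic cell genes, 2 were called in each direction between newborn and adult rats, and the summed level ran from 19.2 to 38.6 in newborn, 18.6 to 23.9 in adult and 14.8 to 17.9 in old rats, with 3, 2 and 1 of the genes above background on no array of these ages. Of 6 B cell genes, 1 was called lower in newborn than in adult rats, and the sum ran from 1.07 to 3.05 in newborn and 1.38 to 3.43 in old rats. Among these 6 genes, 3 were above background on no newborn array and 2 on no old array. In adult rats the B cell sum was 1.51, 1.66, 1.30 and 6.01 in rats 13, 14, 16 and 15. All 6 B cell genes were highest in rat 15, when 38.0% of expressed probes outside the class II genes were. None of the 6 was called by the F test between adult rats. Highest in rat 15 were also 4 of 7 dendritic cell genes, 3 of 6 plasma cell genes and 3 of 6 genes of all leukocytes. The defining B cell marker Ms4a1 was above background on 1 of 35 arrays.

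Of 11 T cell genes, 3 were called lower in newborn than in adult rats, 9 lower in newborn than in old rats and 3 lower in adult than in old rats. The T cell gene called higher in adult than in old rats was Cd4, the co-receptor for class II (adjusted p = 0.000865), which was above background on 16 of 35 arrays and is named after its values were seen. The summed level of the 11 genes ran from 22.0 to 50.6 in newborn and from 46.4 to 58.1 in old rats, and was 21.3, 22.3, 27.3 and 42.1 in adult rats 13, 14, 16 and 15. Among the 11 genes, 5 were above background on no newborn array, 1 on no adult array and 2 on no old array. Of these genes 9 were highest in rat 15 among adult rats, when 38.0% of expressed probes outside the class II genes were, and none was called by the F test. Of 6 plasma cell genes 1 was called in each direction between newborn and adult rats, with sums from 133 to 365 in newborn, 81.5 to 177 in adult and 107 to 130 in old rats. Of these 6 genes, 2, 2 and 3 were above background on no array of these ages. Of 6 genes common to all leukocytes, 3 were called higher and 2 lower in newborn than in adult rats, and the sum ran from 251 to 449 in newborn, 178 to 306 in adult and 312 to 352 in old rats. Sums for macrophages, T cells, B cells and all leukocytes were highest in rat 15 among adult rats, as were the class II genes, those for dendritic and plasma cells were highest in rat 16, and their part in the result was not tested.

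The genes most like the class II genes were sought by correlating each probe with the mean of the 5 genes over the 27 rats, after subtracting the mean of each of the 6 groups. The search covered 24361 probes expressed in adult rats, in old rats and in at least 1 litter and gives a description, since these levels share RNA and array. The 5 gene symbols with the highest r were B2m (0.973), the light chain of MHC class I, Psmb10 (0.947) and Psmb9 (0.933), catalytic subunits of the immunoproteasome, Oasl2 (0.942), of the 2′-5′ oligoadenylate synthetase family, and RT1-CE4 (0.934), an MHC class I gene. Within the 19 pups alone, r was 0.944, 0.890, 0.914, 0.896 and 0.899 in the same order. These pups are among the 27 rats by which the 5 genes were chosen, so that their r is no further support. The probe for the haplotype k beta1 chain, which has no symbol, had a still higher r of 0.982.

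The adult rats entered the choice of these 5 genes, so that their order there is a description and no further support. Psmb9 was 3.99, 4.43, 4.93 and 7.36 in adult rats 13, 14, 16 and 15, a 10.3-fold range, and Oasl2 was 1.89, 2.36, 2.69 and 4.61. B2m was 7.35, 7.69, 8.03 and 8.70 in the same rats. Between newborn and adult rats none of the 5 was called, with log2 differences of 0.08 for B2m, −0.02 for Psmb10, 0.48 for Oasl2, −0.44 for RT1-CE4 and −0.40 for Psmb9. Between newborn and old rats RT1-CE4 (−1.44), Psmb9 (−1.41) and B2m (−0.83) were called lower in newborn. B2m was the only one of these 5 genes whose promoter window was looked up, so it cannot show whether such stretches go with likeness. Its window also carried the spaced pair of stretches seen in the class II promoters.
B2m, chr3:129549227-129549273, plus strand: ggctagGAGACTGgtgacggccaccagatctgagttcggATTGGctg

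**Figure D4:**
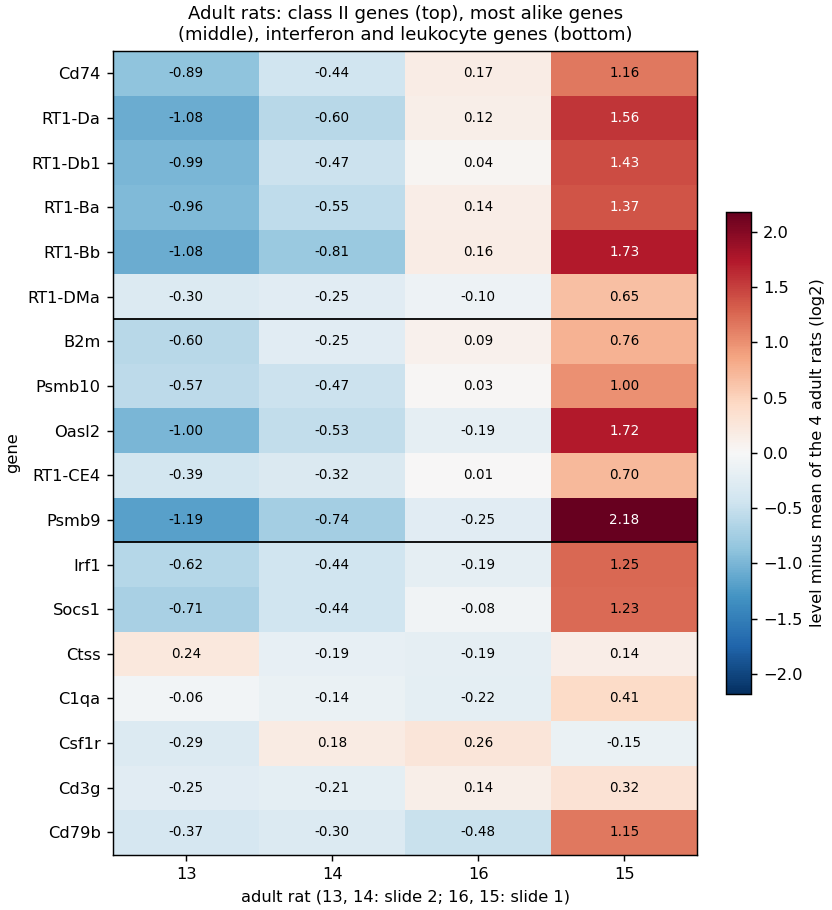
Level of each gene in adult rats 13, 14, 16 and 15 minus its mean over the 4 rats (log2), with class II genes on top, the 5 genes most like them in the middle and interferon and leukocyte genes at the bottom. Rat 15 stands 1.16 to 1.73 above the mean for the 5 class II genes and 2.18 above it for Psmb9. Of the genes at the bottom, the value of rat 15 is 1.25 for Irf1, 1.23 for Socs1 and 1.15 for Cd79b. It is 0.41 for C1qa, 0.32 for Cd3g, 0.14 for Ctss and −0.15 for Csf1r. The genes at the bottom are a selection from their lists.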

How the data were processed

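The arrays were Agilent whole rat genome arrays, 1 dye, hybridized with total RNA of the olfactory epithelium. The authors extracted the scans with Feature Extraction (9.5.1.1 for adult arrays, 9.5.3.1 for the others), and the deposited intensity of each spot is background-subtracted and not normalized between arrays. Other deposited columns hold the quality flags. A deposited matrix holds a ratio per array and probe, which followed the scanner level up to a constant per probe and served as an alternative. Spots flagged as outliers (4189 values on 732 probes) were left out, intensities were divided by the array median, floored at 0.01 and log2-transformed, and the arrays of a rat averaged. limma 3.58.1 (R 4.3.3, lmFit, eBayes with trend) was fitted over 6 groups on all probes without a filter, with Benjamini-Hochberg adjustment and a threshold of 0.01. Differences between adult or old rats used the sides as replicates. The code was tested on simulated data. Per list, up to 4 genes called in an age comparison with the largest change were named. Members, lists and tests were chosen with earlier results of these data known. The lists were written from general knowledge. Above background required, for a share of 0.5 or more of the spots of a probe, a positive and significant signal that the scanner software called well above background, neither saturated nor uneven, and expressed meant 3 arrays of a litter or 6 of 8 adult or old arrays. Probe coordinates are in build rn3, and promoters in GRCr8. The number of arrays limits the precision. Some values of single genes on the lists are not reported here.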

Additional observations from a re-analysis of the deposited data

Results flagged for a closer look

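In a group of 4 or 5 rats, a rat was singled out when its gap to the nearest other rat exceeded Dixon's critical share of the range of the group. For a single gene, chance gives this in about 1 of 20 groups. Here 10 of the 66 groups examined (11 genes in 6 groups) met it. The 11 genes share the same rats, and 5 of them were chosen for their likeness to the class II genes. The count can therefore not be set against chance. In L2 the highest rat was pup 24 each time, with a share of 0.747 for RT1-Da, 0.736 for RT1-Bb, 0.942 for B2m, 0.878 for Psmb10, 0.846 for Oasl2 and 0.848 for RT1-CE4. In L3 the lowest rat was pup 30, with 0.916 for Cd74, 0.742 for RT1-Da and 0.717 for B2m. Old rat 19 was the highest for Psmb10, with 0.837. Adult rat 15 did not pass this criterion for any class II gene. The summed level of the 13 macrophage genes was 688 in pup 24 and that of the 8 interferon gamma signalling genes 277, both the highest among pups. In pup 24 the summed level of the sustentacular cell genes was 498, the lowest among pups, against 936 to 1270 in its littermates, and that of the ciliated cell genes 908, against 369 to 657. Pup 24 was on another slide and scan day than the other 4 pups of L2, and the part of these values in its levels was not tested.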

How the results depend on the processing

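Counts are of the 5 class II genes called, unless all probes are named. For newborn against old rats all 5 were called under every alternative, and for newborn against adult rats under every alternative but the methods' t-test, which called 0, and the mean of the probes of a gene, which called 4, without RT1-Ba, whose mean takes in the probe not above background. For adult against old rats, with 1 gene called, the count was 0 with 75th percentile scaling, quantile normalization, normexp, eBayes without trend, a fit of the groups compared, litter means as replicates and the methods' t-test, 2 with every array entered and rat as random block, and from 0 to 4 when 1 rat was left out, with 4 without adult rat 15. By the t-test 7643 of all probes were called there, against 13169. Among litters, the 1 gene called became 0 with normexp and with slide as a random block, the latter with 5153 of all probes against 9303, and was 0 to 1 when 1 pup was left out, 0 without pup 11. Among adult rats, the 1 gene became 5 with normexp, with 455 of all probes against 131, and leaving out 1 rat gave 0 to 1 genes (0 without rat 13, 14 or 15) and 11 to 47 probes. Among old rats, 27 probes became 0 with normexp and 12 to 27 without 1 rat. The 5 relations with Cd74 across pups passed at 0.05 under every alternative, but RT1-Bb had adjusted p of 0.0166 without L2, 0.0118 without L3, 0.0133 without L4 and 0.0435 with 1 scan day per litter. RT1-DMa, not called between newborn and adult rats, was called with 75th percentile scaling, quantile normalization, normexp, both filters on expressed probes, rat as random block, without adult rat 13 and without pup 24. It was not called there without adult rat 15 (adjusted p = 0.209) or with the methods' t-test (0.222). That t-test also ended its call between adult and old rats (adjusted p = 0.022). The cause of these changes was not tested. No result reversed. No paired analysis was possible because no replicate number is shared between groups. The number of rats per age limits the precision.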
